A study of Rattus norvegicus with 6 samples.

Results

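Olfactory receptors were measured in whole rat heart as the genes named Olr on a one-colour expression array. Genes were chosen by detection. A gene was taken when a non-control probe bearing an Olr name was flagged well above background on at least 3 of 6 arrays. The flags came from the scanner software, and the brightest such probe stood for the gene. The difference between groups was not part of the rule, but for dim genes detection could itself depend on the group. The array carried 1169 Olr genes on 1211 probes, and 141 genes met the rule. One of them, Olr1, is no olfactory receptor: its record is that of the oxidised LDL receptor 1, a lectin-like scavenger receptor, and it is described apart at the end. The remaining 140 genes are the olfactory receptors described here, among 17536 genes tested in all.

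The hearts came from 6 animals, 3 in each group. The series text describes all of the animals as TAC mice, whereas the labels give the organism as Rattus norvegicus and the array is a rat array, so the samples are treated as rat here. TAC usually stands for transverse aortic constriction, a surgical pressure overload of the heart, and it was shared by both groups. The AACO group received the Chinese medicine formula AACO at 0.386 µg/g daily for 8 weeks, the control group received the same amount of double-distilled water, and hearts were taken 24 h after the last dose. Strain, age and sex are not given in the labels used here. The series text names separate donors for each experiment, so each array is treated as 1 animal. The replicates are called AACO 1 to 3 and control 1 to 3.

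Olfactory receptors are a very large family of G protein-coupled receptors that detect odorants in the cilia of nasal sensory neurons. There, a bound receptor activates the G protein Golf (Gnal), adenylyl cyclase 3 (Adcy3) makes cyclic AMP, and a cyclic-nucleotide-gated channel opens, and each neuron expresses mainly a single receptor. Class I receptors are the group related to those of fish and class II receptors make up the rest of the mammalian family. Transcripts of some family members are also found outside the nose, the heart included, usually at low levels.

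Each receptor is represented by a probe of 60 bases. The sequences of 8 probes are printed because the results turn on them: the 2 brightest receptors (Olr1439, Olr857), the single rise (Olr1375), the 3 falls measured above background on every array that had the largest size with 2 spots an array (Olr1736, Olr1714, Olr1582), and a pair that fell together and read overlapping sequence (Olr1247, Olr1248). Capitals mark the stretch most like a probe of another gene on the array, with both strands searched. For Olr857 the match, 15 of 16 bases, is to the reverse complement of the Dennd5a probe. In the other probes printed it is on the same strand.
Olr1439: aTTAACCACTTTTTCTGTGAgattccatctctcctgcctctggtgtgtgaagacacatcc
Olr857: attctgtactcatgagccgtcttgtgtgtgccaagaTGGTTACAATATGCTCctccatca
Olr1375: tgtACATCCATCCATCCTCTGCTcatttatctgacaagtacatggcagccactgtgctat
Olr1736: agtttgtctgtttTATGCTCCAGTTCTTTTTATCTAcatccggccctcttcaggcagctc
Olr1714: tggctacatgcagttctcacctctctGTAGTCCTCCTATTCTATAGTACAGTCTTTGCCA
Olr1582: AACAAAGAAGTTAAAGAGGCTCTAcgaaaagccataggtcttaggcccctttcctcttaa
Olr1247: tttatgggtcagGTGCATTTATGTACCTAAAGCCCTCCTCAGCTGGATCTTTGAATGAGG
Olr1248: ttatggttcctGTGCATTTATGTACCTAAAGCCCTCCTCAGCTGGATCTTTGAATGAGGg
By the array files, in build rn4, the Olr1439 probe lies at chr10:44704257-44704316 on the plus strand and the Olr857 probe at chr5:139166775-139166834 on the minus strand. The Olr1375 probe lies at chr10:12520296-12520355 on the minus strand. The probes of Olr1736 and Olr1714 lie at chr20:1365652-1365711 on the plus strand and chr20:1102338-1102397 on the minus strand, and that of Olr1582 at chr13:89412016-89412075 on the plus strand. The Olr1247 and Olr1248 probes lie at chr8:40696505-40696564 on the plus strand and chr8:40711214-40711273 on the plus strand. No exon annotation of that build was used here. Of the 140 receptors, 137 could be matched to a current gene in the RefSeq table, and for 122 of these the gene model has only coding length, from 912 to 1008 bases.

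Probes differed in how far they could tell receptors apart. The stretch in capitals covered 19 identical bases of 60 for Olr1439, shared with Olr1437, and 31 of 34 aligned bases for Olr1714, shared with Olr1720. The probes of Olr1247 and Olr1248 had 48 consecutive bases in common, so their signals are not independent measurements and the transcripts of these genes could not be separated with certainty. Among the 140 receptors, 16 had a probe with at least 40 bases identical to a probe of another gene, which was another Olr gene in 15 cases. The others include Olr789, with 43 bases identical to Olr791, Olr98, with 55 identical to Olr103, and Olr213, with 42 identical to Olr211. Values of those genes are uncertain for that reason.

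Detection of the family was sparse. Of 1168 olfactory receptor genes on the array, 879 were well above background on no array, 123 on 1 array and 26 on 2 arrays. The 140 members divided into 21 genes above background on 3 arrays, 23 on 4, 16 on 5 and 80 on all 6. Per array, 8.73%, 11.2% and 11.8% of the Olr spots were above background in the AACO hearts, and 10.5%, 9.55% and 8.13% in the control hearts. The groups overlapped in that share. Over all spots, 70.9%, 72.4% and 72.0% were above background in AACO hearts and 68.7%, 67.7% and 66.0% in controls, with no overlap.

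Both classes were found. Of 120 class I genes on the array 16 (13.3%) were members, and of 972 class II genes 116 (11.9%) were members. For the remaining 8 members, the current symbol gives no family. By location in rn4, chromosome 1 held 38 members of 278 array genes, chromosome 3 held 28 of 287 and chromosome 10 held 24 of 119.

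Detection went with the base composition of the probe. Of 550 olfactory receptor probes with 21 to 23 G or C among their 60 bases, 4.18% were above background on at least 3 arrays. The share was 10.8% of 342 probes with 24 to 26 such bases and 22.9% of 280 with 27 to 29. With 30 or more it was 42.1%, of only 38 probes. Probes of other genes had shares of 66.6%, 65.5%, 66.0% and 75.2% in the same classes, so the gradient was much steeper among receptor probes. The last class is not alike in both sets, as receptor probes reached 55% G and C and other probes 90%. Member probes had a median G and C content of 45%, receptor probes that were not members 40%, and probes of other genes 45%. Whether base composition or the transcripts themselves set which receptors were detected was not tested.

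**Figure D1:**
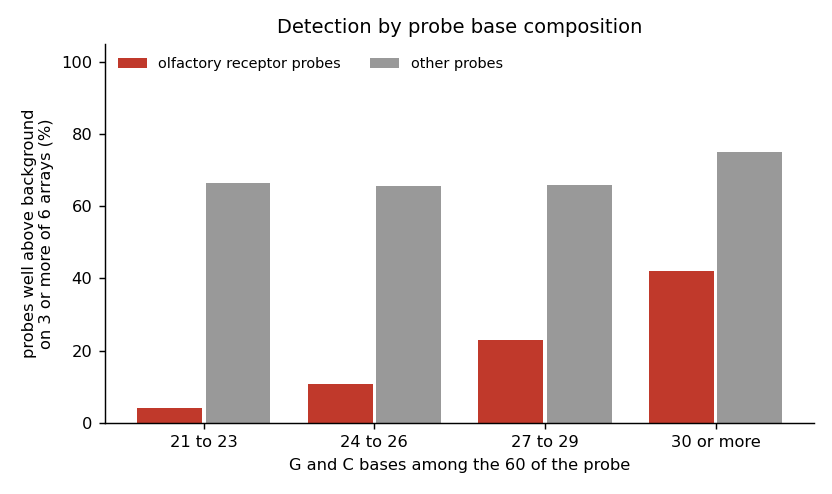
Share of probes well above background on 3 or more of 6 arrays (percent, vertical axis) by the number of G and C bases in the probe, for olfactory receptor probes (red) and probes of other genes (grey). The red bars climb from 4.18% to 42.1%, while the grey bars lie between 65.5% and 75.2%.

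Signals of the members were low. Levels are given as log2 of the background-corrected signal minus the 75th percentile of the same array, so that 0 is the signal at that percentile. The median member lay at -5.35 (range -7.40 to 0.05) and the median of all genes tested at -1.56. In the scanner's units, the median member signal per array was between 38.1 and 49.997, whereas the median of spots well above background was between 588 and 890. Levels of different probes reflect the probe as well as the transcript, so they describe how bright a probe was and do not rank the receptors by transcript number.

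The brightest receptor probe was that of Olr1439 (Or2ak6), at 0.05, 0.08 and -0.15 in the AACO hearts and 0.18, 0.04 and 0.08 in the controls. The groups overlapped, and the difference, AACO minus control, was -0.11 (SE 0.106, adjusted p = 0.527). The next, Olr857 (Or13p4), lay at -0.56, -0.67 and -0.24 with AACO and at 0.22, -0.38 and -0.25 in controls, again with overlap. Its difference was -0.35 (SE 0.196, adjusted p = 0.278). These were the only receptors whose mean level came within 1 log2 unit of the 75th percentile of the array.

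Of the other 6 receptors among the 8 brightest, only Olr1375 passed the test. Olr3 (Or10am5) was nearly level across the 6 hearts, at -1.68, -1.69 and -1.47 with AACO and -1.58, -1.61 and -1.63 in controls. Olr567 (Or8w1b) was lower in every AACO heart, at -1.77, -1.83 and -1.81 against -1.36, -1.58 and -1.70, but its difference of -0.26 missed the threshold (adjusted p = 0.187). Olr386 (Or6al2) did so too, at -2.44, -2.50 and -1.99 against -1.80, -1.77 and -1.94, with a difference of -0.47 (adjusted p = 0.102). Olr1572 and Olr1l (Or6al1) had higher means with AACO by 0.28 and 0.29, neither past the threshold (adjusted p = 0.461 and 0.468).

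Between the groups, 19 of the 140 receptors fell with AACO and 1 rose, by limma with Benjamini-Hochberg adjustment over the 17536 genes at 0.05. Over all genes tested 11.3% were called, 4.94% lower and 6.32% higher, so the total share of receptors called was near that background and their split leaned to the lower side. The median difference of the members was -0.28 and that of all genes 0.04. Relative to all genes the members' median stood at -0.32, and that offset was the same without scaling between arrays, where the members' own median turned to 0.21 while that of all genes rose to 0.52 and the counts became 6 falls (1.32% of all genes) and 17 rises (31.3% of all genes). Leaving the scaling out adds 0.49 to the difference of every gene, receptors and others alike, so the offset had to stay the same. The smallest of the 19 falls was -0.69, so none could change direction there. Still called without scaling were 5 of them. Means were lower with AACO in 101 of 140 receptors (45.2% of all genes). The groups did not overlap in 50 receptors (37.4% of all genes): all 3 AACO values were below all 3 control values in 45 (15.9% of all genes) and above them in 5 (21.5% of all genes). At an unadjusted limma p under 0.05, 45 receptors were lower (12.9% of all genes) and 3 higher (18% of all genes). These counts describe the members and are no test of the family.

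The largest fall was that of Olr745 (Or4x13), at -8.25, -8.06 and -7.71 in the AACO hearts and -5.96, -5.70 and -5.11 in controls. It was above background on all 3 control arrays and on no AACO array, on a single spot an array, and the negative control spots lay at -8.38, -8.70 and -8.70 on the same AACO arrays. Its level with AACO is therefore uncertain. Set against the lowest signal of any probe flagged above background on each AACO array, it was 3.79-fold lower than in controls. That is no strict limit, since Gng7, at -7.07 and -7.11 in AACO 1 and AACO 2, was not flagged there. The limma adjusted p of 0.00824 belongs to the measured difference of -2.42. Olr745 entered the set through the control arrays alone, so a gene of this kind had to differ.

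The next falls had at least 1 array above background in each group. Olr1867 lay at -6.01, -6.39 and -5.97 with AACO and at -5.01, -4.52 and -4.60 in controls, a fall of -1.41 (SE 0.180, adjusted p = 0.0114), and was above background on 2 AACO and 3 control arrays. Olr1646 (Or6e1) lay at -7.28, -6.71 and -6.84 against -5.53, -5.63 and -5.93, a fall of -1.24 (SE 0.185, adjusted p = 0.0155), and was above background on 1 AACO and 2 control arrays. In both genes every AACO heart was below every control heart.

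Olr1736 (Or12d2b), whose probe is printed above, had the smallest adjusted p among the receptors. It lay at -5.23, -5.19 and -5.27 with AACO, an SD of 0.04, and at -4.17, -3.84 and -4.07 in controls, an SD of 0.17. The fall of -1.20 (SE 0.116, 2.30-fold lower, adjusted p = 0.00697) exceeded the spread within either group. Also on chromosome 20, Olr1714 (Or1o11), lay at -5.40, -5.36 and -5.48 against -4.34, -3.88 and -4.44, a fall of -1.19 (SE 0.162, adjusted p = 0.0123). Both were above background on all 6 arrays.

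Olr1582 (Or10j3) lay at -4.90, -5.19 and -4.80 with AACO and at -3.93, -3.98 and -3.61 in controls, a fall of -1.12 (SE 0.154, adjusted p = 0.0127). Olr633 (Or4c31), a dimmer member, lay at -6.84, -7.08 and -6.85 against -5.60, -5.79 and -6.07, a fall of -1.10 (SE 0.148, adjusted p = 0.0123), and was above background on 1 AACO and 2 control arrays. No AACO value reached the lowest control value in either gene.

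Olr168 (Or52n4d), of class I, lay at -4.63, -4.86 and -4.66 with AACO and -3.33, -3.60 and -4.00 in controls, a fall of -1.07 (SE 0.183, adjusted p = 0.0214). Olr1366 (Or1f20) lay at -5.75, -5.79 and -6.24 against -4.89, -4.82 and -4.90, a fall of -1.06 (SE 0.150, adjusted p = 0.0138), on 1 spot an array. Olr789 (Or4f61b) lay at -3.59, -3.96 and -3.55 against -2.44, -3.05 and -2.66, a fall of -0.99 (SE 0.194, adjusted p = 0.0301). Here too no heart of one group fell within the range of the other.

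The remaining 9 falls ranged from -0.69 to -0.91. Among them were Olr1247 (Or8b46c) and Olr1248 (Or8b46), the pair whose probes shared 48 bases. Olr1247 lay at -4.70, -5.06 and -4.96 with AACO and -3.92, -4.21 and -4.03 in controls. Olr1248 lay at -4.29, -4.36 and -4.20 against -3.45, -3.53 and -3.80. Their falls of -0.86 and -0.70 (adjusted p = 0.0179 and 0.0231) may come from either transcript and count as 1 observation of sequence rather than as separate ones. Of all 19 falls, 12 were above background on every array and 9 exceeded 1 log2 unit. Detection and difference were not independent. Of 18 receptors above background on fewer AACO than control arrays, 18 had lower means with AACO and 5 fell. Of 31 with more AACO arrays, 12 had lower means and 1 fell. Of 91 with as many, 71 had lower means and 13 fell. Over all genes 45.2% had lower means and 4.94% fell.

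The receptor that rose was Olr1375 (Or1f26), at -1.59, -1.46 and -1.46 in the AACO hearts and -2.48, -2.30 and -2.11 in controls. It was above background on every array and among the 8 brightest members, and it was 1.73-fold higher with AACO (log2 0.79, SE 0.124, adjusted p = 0.0173). The lowest AACO heart was above the highest control heart. Olr1375 and Olr1366 belong to the same subfamily by current name, lie on the same chromosome, and differed in direction.

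**Figure D2:**
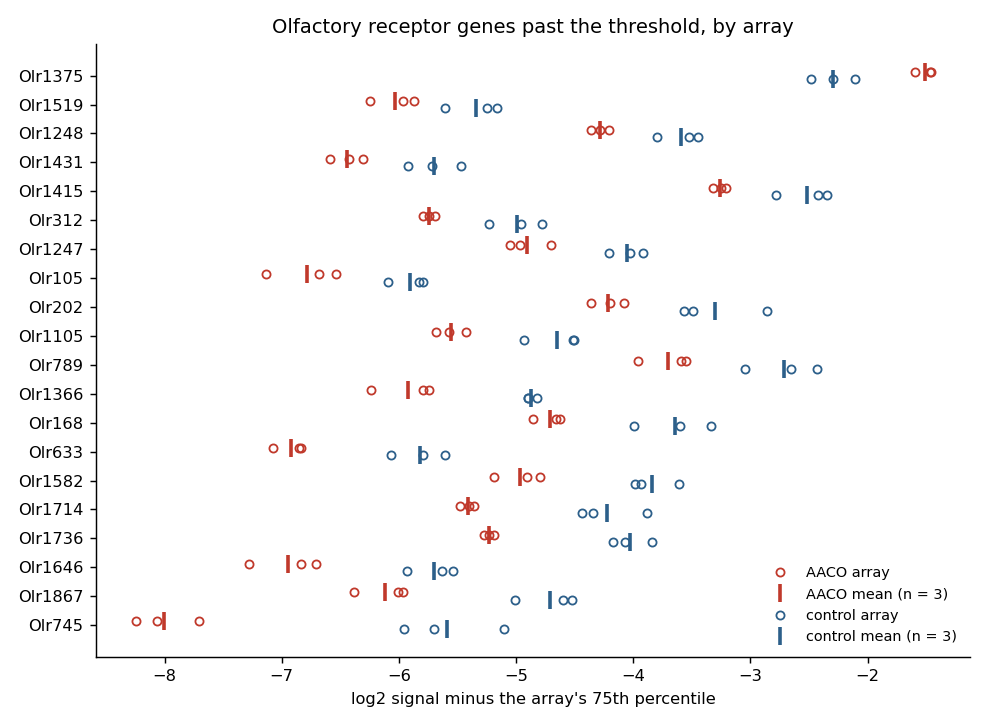
Level on each array (log2 signal minus the array's 75th percentile, horizontal axis) of the 20 olfactory receptor genes with adjusted p under 0.05, sorted by difference, with open circles for arrays and bars for the means of 3 AACO (red) and 3 control (blue) hearts. Olr1375 at the top is higher with AACO, and in the other 19 genes all AACO circles are left of all control circles.

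How far these calls held without single hearts differed from gene to gene. In all 19 falls every AACO value was below every control value, so leaving out 1 array could not change their direction. In every such fit all 19 kept an unadjusted limma p under 0.05, but adjusted calls were fewer. Without AACO 1, 7 of the 19 were still called, without AACO 2 only 3 were, and without control 3 there were 10. Olr1375 was not called without AACO 1 or without AACO 2. Over all genes the calls dropped in the same fits, from 1108 higher and 867 lower to 179 and 227 without AACO 1 and to 108 and 148 without AACO 2.

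The largest differences that missed the threshold, among receptors above background on all 6 arrays, were those of Olr98, Olr213, Olr1492 and Olr390. Olr98 (Or52ae7b) lay at -5.36, -5.86 and -5.37 with AACO and at -5.15, -3.84 and -3.53 in controls, a difference of -1.36 (SE 0.424, adjusted p = 0.0891). Its duplicate spots disagreed in control 1, at -6.96 and -3.34, and without that array the difference was -1.85 (adjusted p = 0.0148). Olr213 (Or13n4b) lay at -4.30, -4.41 and -4.05 against -3.98, -2.96 and -3.03, with control 1 again the lowest control and a difference of -0.93 (adjusted p = 0.0866).

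Olr1492 (Or1e28) lay at -6.90, -6.95 and -5.97 with AACO and -5.72, -5.83 and -5.55 in controls, with AACO 3 apart from the other AACO hearts and a difference of -0.91 (adjusted p = 0.0822). Without AACO 3 it was -1.23 (adjusted p = 0.0139). Olr390 (Or13l2) had the higher mean with AACO, at -1.95, -1.97 and -2.23 against -3.21, -2.19 and -3.20. The groups overlapped through control 2, and the difference was 0.82 (adjusted p = 0.116), or 1.15 without control 2 (adjusted p = 0.0189).

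Receptors above background in a single group were rare. Besides Olr745 in controls, 4 genes, Olr757, Olr1749, Olr840 and Olr288, were above background on all 3 AACO arrays and on no control array. They entered the set through the AACO arrays alone, so a higher mean with AACO was favoured in advance. Against the higher of the lowest detected signal and their own control signal, they were 1.15-fold, 1.22-fold, 1.21-fold and 1.57-fold higher with AACO. For Olr757 this is the plain estimate, since its own signal was the higher on each control array. None of the 4 was called (lowest adjusted p = 0.165, for Olr288).

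Spearman's rho between mean level and difference was -0.02 across 140 receptors and 0.01 across the 17536 genes, both descriptions over genes that share the same 6 arrays. Both depended on the background treatment: with no background taken off they were 0.18 and 0.47. In the lowest tertile of level (47 receptors) the median difference was -0.31 and 5 fell, whereas 876 other genes in the same range had a median of 0.18 and 4.68% fell. In the middle tertile (46 receptors) the median was -0.19 and 6 fell, against 0.03 and 7.34% in other genes of that range. In the highest tertile (47 receptors) it was -0.38, with 8 falls and 1 rise, against 0.04 and 5.47% falls in 8673 other genes.

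**Figure D3:**
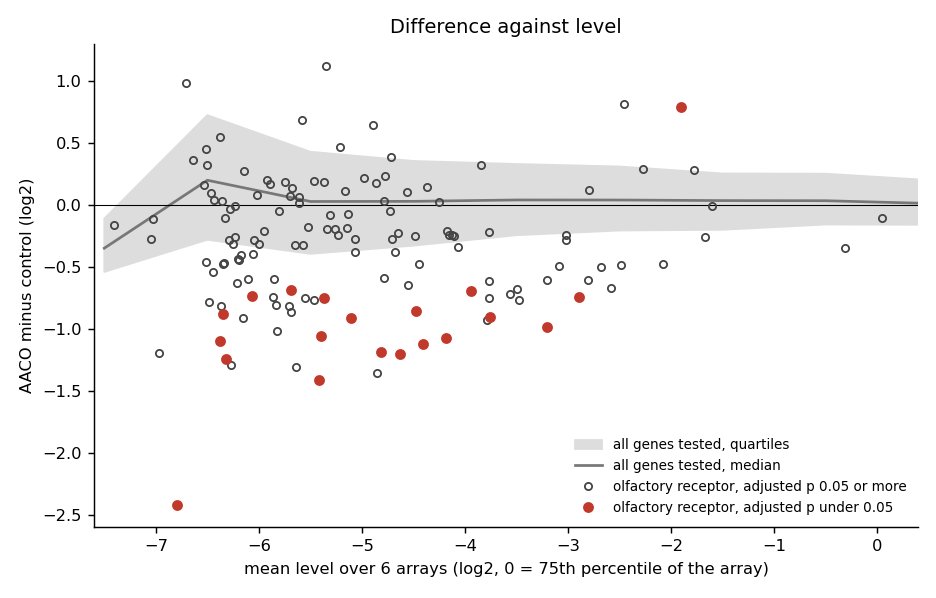
Difference between the groups (AACO minus control, log2, vertical axis) against mean level over 6 arrays (horizontal axis) for 140 olfactory receptor genes, with filled red points for adjusted p under 0.05, and the median and quartiles of all genes tested in bins of 1 log2 unit in grey. The red points below 0 are spread over levels from -6.80 to -2.89, and Olr1375 lies above 0 at -1.90.

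Receptors that did not meet the rule gave the lower end of the same scale. The 879 receptor genes above background on no array had a median difference of -0.63, close to the -0.58 of 6024 other undetected genes and to the -0.67 of the 308 negative control spots, which are designed not to bind transcripts. That offset holds the scaling difference of 0.49 between the groups, since without scaling the negative controls differed by -0.18. The median was -0.41 in receptors detected on 1 to 2 arrays (0.02 in other genes), -0.31 on 3 to 5 arrays (0.24) and -0.27 on 6 arrays (0.03). The members thus lay between background and the other detected genes, and the part that background signal has in their differences was not tested.

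**Figure D4:**
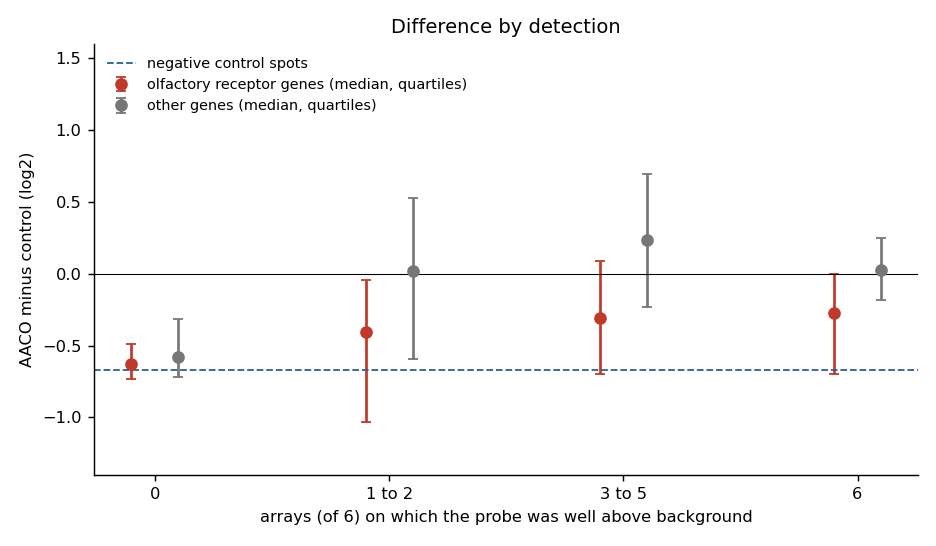
Difference between the groups (AACO minus control, log2, median with quartiles) by the number of arrays on which the probe was well above background, for olfactory receptor genes (red) and other genes (grey), with the negative control spots as a dashed line. Red and grey points coincide near the dashed line at 0 arrays, and from 1 array on the red medians, -0.41 to -0.27, lie below the grey ones.

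At the border of the rule, the 3 faintest members were Olr1428, Olr1179 (Or7e174) and Olr436 (Or5ak4), with mean levels of -7.40, -7.05 and -7.02 and differences of -0.16, -0.28 and -0.11. The 3 brightest receptors left out, each above background on 2 arrays, were Olr715, Olr1744 and Olr1681, with mean levels of -6.30, -6.30 and -6.33 and differences of 0.09, 0.02 and -0.40. The levels on both sides of the border thus overlapped.

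By class, the 16 class I members had means lower with AACO in all cases (45.2% of all genes), from -1.36 in Olr98 to -0.0041 in Olr157. Their median was -0.49, with 3 falls (Olr168, Olr202, Olr105), or 18.8%, against 4.94% of all genes. The 116 class II members had a median of -0.28, with 15 falls (12.9%) and 1 rise (0.862%, against 6.32% of all genes). Without scaling between arrays 8 of the 16 class I means and 40 of the 116 class II means were lower. The difference between classes was not tested. Olr63 (Or51e1), a class I receptor described in heart and prostate, lay at -4.75, -5.09 and -4.78 with AACO and at -4.49, -4.70 and -4.29 in controls. Its AACO values were all below its controls, and the difference of -0.38 missed the threshold (adjusted p = 0.150).

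Control hearts were less alike than AACO hearts in the receptors. The median SD over 3 arrays was 0.43 in controls and 0.22 with AACO, and the control SD was the larger in 103 of 140 receptors (73.6%) and in 49.9% of all genes tested. By tertile of level, from lowest to highest, the control SD was the larger in 33 of 47, 37 of 46 and 33 of 47 receptors. Among other genes of like level it was the larger in 68.5%, 60.2% and 47.3%. In the lowest range the median control and AACO SDs were 0.55 and 0.32 in receptors and 0.46 and 0.29 in other genes. In the highest range they were 0.27 and 0.16 in receptors and 0.15 and 0.16 in other genes. The duplicate spots of a probe, present for 127 members, had a median SD of 0.27 within an array, and it was 0.45 in the lowest tertile and 0.16 in the highest.

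Single controls lay apart in part of the set. Control 1 was more than 1 log2 unit below both other controls in 12 receptors (8.57%, against 5.17% of other genes of like level), control 2 in 7 (5%, against 2.95%) and control 3 in 2 (1.43%, against 2.21%). As far above both others lay control 1 in 5 receptors (3.57%, against 1.65%) and control 2 in 4 (2.86%, against 2.22%). Control 3 did so in 2 (1.43%, a slightly higher share than in other genes of like level). Each AACO array was that far below or above both others in at most 1 receptor each way (at most 0.714%). On AACO arrays this was also rare among other genes of like level, at 0.603% to 1.97% per array and direction. Among the 12 low in control 1, Olr704 (Or4a69) lay at -8.21 in control 1, -5.87 in control 2 and -4.21 in control 3, and Olr1509 (Or3a4) lay at -7.29, -4.74 and -4.92. In 9 of the 12 every spot of control 1 was below the other controls, while in Olr98, Olr1400 and Olr19 only 1 of its 2 spots was. Without control 1, 25 receptors were lower (3.96% of all genes) and 4 higher (4.2% of all genes) with AACO.

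**Figure D5:**
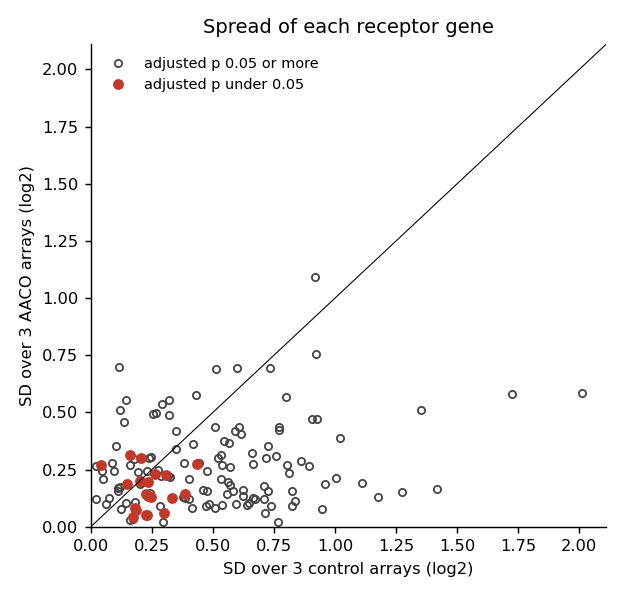
SD over the 3 AACO arrays (vertical axis, log2) against SD over the 3 control arrays (horizontal axis, log2) for 140 olfactory receptor genes, with filled red points for adjusted p under 0.05 and a line where both SDs are equal. Most points, 103 of 140, lie below the line, with the larger spread among controls.

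The machinery that olfactory receptors use in the nose was only in part measurable in these hearts. Of 17 genes of olfactory transduction 12 were tested, 3 rose (6.32% of all genes) and 1 fell (4.94% of all genes). Their median was 0.21, or 0.69 without scaling. Gnal, the alpha subunit of Golf, lay at -2.94, -2.46 and -2.42 with AACO and at -3.46, -3.18 and -3.44 in controls, a rise of 0.75 (SE 0.170, adjusted p = 0.0419). Gnas, the related alpha subunit Gs, rose by 0.39 (adjusted p = 0.0413) and Pde4a, a cyclic AMP phosphodiesterase, by 0.89 (adjusted p = 0.0099), whereas Gnb1, a beta subunit, fell by 0.37 (adjusted p = 0.0473), though without scaling its difference was 0.11. Adcy3 had a difference of 0.37 (adjusted p = 0.294). The channel subunit Cnga2 was not well above background on any array.

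Of 6 genes that bring olfactory receptors to the cell surface or mark olfactory neurons, 3 were tested, and Reep1, a receptor accessory protein, rose by 0.62 (adjusted p = 0.0327). Rtp2, the olfactory marker gene Omp and Stoml3 were not well above background on any array. Of 10 regulators linked to receptor gene choice 8 were tested, and Atf5, a transcription factor of the stress response that olfactory neurons use, fell by 0.49 (adjusted p = 0.0412), with a difference near 0 (-0.00055) without scaling. Other chemosensory receptors were few: of 29 vomeronasal receptors tested 3 rose and 3 fell (median -0.07), and of 4 taste receptors 1 rose (median -0.72). Over all genes tested 6.32% rose and 4.94% fell.

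Of 7 cardiomyocyte genes 7 were tested and none was called, which does not show that the same parts of the heart were sampled. Of 8 olfactory sensory neuron markers 4 were tested and 4 were not above background on any array. Of those tested 1 rose, Gnal (6.32% of all genes), and none fell. The summed level of the list overlapped between groups (0.281 to 0.307 with AACO, 0.260 to 0.294 in controls, in multiples of the 75th percentile). That sum joins opposite differences, 0.75 in Gnal and -0.65 in Gng13 (limma adjusted p = 0.245 for Gng13). Macrophage markers moved with the groups: 6 of 6 fell (all 6 also lower without scaling), and their sum was 5.77 to 7.30 with AACO and 12.8 to 17.5 in controls. The atrial genes Myl7 and Sln were high in AACO 1 and AACO 2 (sums of 31.0 and 91.2) and low in AACO 3 and the controls (0.508 to 1.23). With the atrial level as a covariate limma called 0 receptors and 0 genes in all, and 19 receptors were lower and 1 higher at an unadjusted p under 0.05. The part of macrophage or atrial content in the receptor differences was not tested, and in bulk tissue fewer cells of a type and less RNA per cell cannot be told apart. The files place each group on a slide of its own with its own scan day, so slide, scan and treatment cannot be told apart for any difference given here.

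Olr1, the oxidised LDL receptor 1 of endothelium and macrophages, lay at -6.23, -6.12 and -6.06 with AACO and at -5.13, -5.34 and -5.11 in controls. It fell by 0.94 (SE 0.108, 1.92-fold lower, adjusted p = 0.00934) with no overlap between the groups, and was above background on 3 AACO and 2 control arrays. Without scaling its difference was -0.46 and was not called (adjusted p = 0.173), nor was it with the atrial level as covariate (-0.90, adjusted p = 0.171).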

How the data were processed

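RNA of 6 whole hearts was labelled with Cy3 and hybridised to one-colour Agilent arrays. Per the file headers the scans were read with Agilent Feature Extraction, version 10.7.1.1 by the submitters' processing notes, which subtracted background. The deposited intensity values were used as log2 minus each array's 75th percentile over the non-control spots, and spots of a probe were averaged. A probe was kept when at least a share of 0.5 of its spots was flagged well above background on 3 of 6 arrays; 20112 of 30367 probes passed. The brightest stood for the gene. The authors' deposited log2 table served as an alternative, as did the deposited signals with other background treatments; scale and centring of that table are not stated.

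Groups were compared with limma 3.58.1 (R 4.3.3; lmFit, eBayes, two-sided, Benjamini-Hochberg over 17536 genes, threshold 0.05), which was tested on simulated data. P-values measure the spread between 3 arrays a group, whose number limits the precision. Where a whole group lay below background, the fold is given against the higher of the lowest detected signal and its own. That is no strict limit, since some brighter probes were not flagged. Where its own was the higher on each array, the fold is the plain one. Probe similarity was searched with blastn 2.17.0, and current symbols came from RefSeq (GRCr8). Members and gene lists were chosen with earlier results of these data known. Named genes were called receptors (up to 10 rises and 10 falls), the 8 brightest, the 4 largest uncalled differences on all 6 arrays, the 3 dimmest, and the 3 brightest of those above background on 2 arrays; others were chosen after their values were seen. Lists of male germ cell genes (2 of 6 tested) and neuron genes (0 of 4 tested) gave 0 calls in limma, and none had an unadjusted p under 0.05.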

Additional observations from a re-analysis of the deposited data

How the results depend on the processing

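Falls among the receptors numbered 51 with normexp background correction (8.72% of all genes), 65 with no background taken off (11.3%), 33 with an offset of 16 (6.27%), 6 with no scaling between arrays (1.32%) and 154 of 1168 with no filter on dim probes (5.33%). Rises numbered 17 with no scaling (31.3% of all genes) and 2 with no filter (2.95%). With the atrial level as covariate limma called 0 receptors, with 1 rise and 19 falls at an unadjusted p under 0.05. AACO replicate 3 alone against the controls (chosen after seeing the data) gave 0 calls, with 1 and 21 at that p. Its single AACO array is assumed to vary like the controls, whose spread alone sets these p-values, so nothing is read from them. Leaving out 1 array gave 0 to 4 rises (0.616% to 6.99% of all genes) and 3 to 25 falls (0.844% to 5.34% of all genes). The median difference was -0.45 with normexp, -0.53 with no background taken off, -0.38 with the offset, -0.61 with no filter and 0.21 with no scaling, and -0.38 to -0.25 without 1 array. Relative to all genes it stayed below 0 under each of these, which for no scaling was fixed in advance. Rank correlation of difference and level was 0.11, 0.18, 0.054 and 0.24 with normexp, no background taken off, the offset and no filter (0.42, 0.47, 0.16 and 0.43 over all genes), -0.10 with AACO replicate 3 alone, and -0.091 to 0.049 without 1 array. The cause of these changes was not tested. Quantile normalization, median scaling, the deposited log2 table, the 75th percentile of probe means (chosen after seeing the data), the mean of all probes and probes above background on all 6 arrays left the 4 measures within 1.5 times or 1 SD. The last of these compares counts over different totals. It gave 16 falls among 80 receptors (6.22% of all genes), a higher share than the 19 among 140. No named gene reversed a call. Of 486 gene values under alternatives, 46 lost and 16 gained a call. Signals near background limit the dim receptors. No paired analysis was possible because the labels share no replicate numbers between groups.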
